A study of Mus musculus with 16 samples.

Results

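The genotype by culture interaction asks whether loss of the pyruvate dehydrogenase complex changed a gene differently in memory than in effector cultures of CD8+ T cells. It was taken over all 16 of the 16 libraries of the series, as the difference between TPdh−/− and wild-type (WT) cells in memory culture minus the same difference in effector culture. WT OT-I T cells of mouse spleen and TPdh−/− OT-I T cells were activated with ovalbumin peptide and then cultured with IL-2, which gave effector cells (TE), or with IL-15, which gave memory cells (TM). TPdh−/− mice carried floxed Pdha1 alleles, which encode the E1 alpha subunit of the complex, and a Cd4-driven Cre, which is active from the thymus onwards in CD4+ and CD8+ lineages alike. The study's methods name adult mice of both sexes, whereas Xist, which female cells express from the inactive X chromosome, was at 0.05 TPM or less in all 16 libraries. The groups were WT TE (libraries 1 to 4), TPdh−/− TE (libraries 5 to 8), WT TM (libraries 9 to 12) and TPdh−/− TM (libraries 13 to 16). The T cell receptor transgene and the peptide activation were common to all 4 groups.

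The pyruvate dehydrogenase complex turns pyruvate into acetyl-CoA inside mitochondria. That acetyl-CoA feeds the tricarboxylic acid cycle and, once exported as citrate, the synthesis of fatty acids and sterols. IL-2 and IL-15 signal through the same beta and gamma receptor chains, and IL-2 is known to drive glycolytic cytotoxic effector cells whereas IL-15 keeps quiescent memory cells. An interaction is therefore a statement about 4 groups at once. It is written here as a log2 difference, and a positive value means that the TPdh−/− cells stood higher against WT in TM than they did in TE.

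Library totals ran from 53007257 to 73507566 counts, with 19379 to 20739 genes detected at 1 count or more. For pairs of libraries of a group the chi-square per degree of freedom ran from 8.11 to 70.3, with WT TM library 12 (53.7 to 70.3 against the others of its group) and TPdh−/− TE library 5 (23.4 to 61.3) the farthest from their partners, so counts without these 2 libraries are given beside the main ones. Whether libraries of the same group stem from different animals is not given in the labels, so the p values measure the spread between libraries, which may be technical. Pdha1 itself lay between 160 and 162 CPM (counts per 1e6 of the TMM-scaled library total) in WT TE and between 147 and 156 CPM in TPdh−/− TE, against 169 to 194 CPM in WT TM and 141 to 160 CPM in TPdh−/− TM. The TPdh−/− libraries were below all WT libraries in each culture, and the interaction was −0.15 ± 0.0651 (SE, adjusted p = 0.193, edgeR's quasi-likelihood test), although it was called at −0.21 with library totals and at −0.31 on TPM without further scaling. A count summed over a whole gene does not show the loss of a single floxed exon, so this gene checks the labels only weakly. The defining CD8 T cell markers Cd8a, Cd8b1, Cd3d, Cd3e, Cd3g and Trac were each at 250 TPM (a length-normalised level) or more as a group mean in all 4 groups, and Cd4 was at 0.365 TPM or less.

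Of 15277 genes tested, 2372 (15.5%) were called in the interaction at an adjusted p under 0.05. The difference was positive for 1226 genes (8.03%) and negative for 1146 genes (7.5%). It exceeded 1 on the log2 scale for 399 of the positive and 289 of the negative genes. Without libraries 5 and 12 the counts were 1181 positive and 1081 negative. The 2 signs were reached by different routes. Of the positive genes 578 were lower in TPdh−/− TE with no call in TM, 367 were higher in TPdh−/− TM with no call in TE, and 149 (0.975% of genes tested) were higher in TM and lower in TE. Of the negative genes 762 were higher in TPdh−/− TE with no call in TM, 165 were lower in TM with no call in TE, and 65 (0.425%) were lower in TM and higher in TE. Without library 6, 12, 15 or 16 the 65 became 43, 39, 41 and 40. The absolute effect was larger in TE for 1589 of the called genes and larger in TM for 783. For comparison, the genotype contrast called 31.4% of genes in TE and 18.3% in TM.

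The balance of signs depended on how libraries were scaled. Library totals without TMM factors gave 925 positive and 1800 negative calls, and TPM values with no further scaling gave 529 and 2310. The median difference over all genes was −0.007 in the main analysis, −0.074 with library totals and −0.143 on TPM. With TMM factors computed on the TPM values, an alternative chosen after seeing the data, the median was −0.001 and the counts were 1069 and 941. Directions below are those relative to the median gene.

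**Figure D1:**
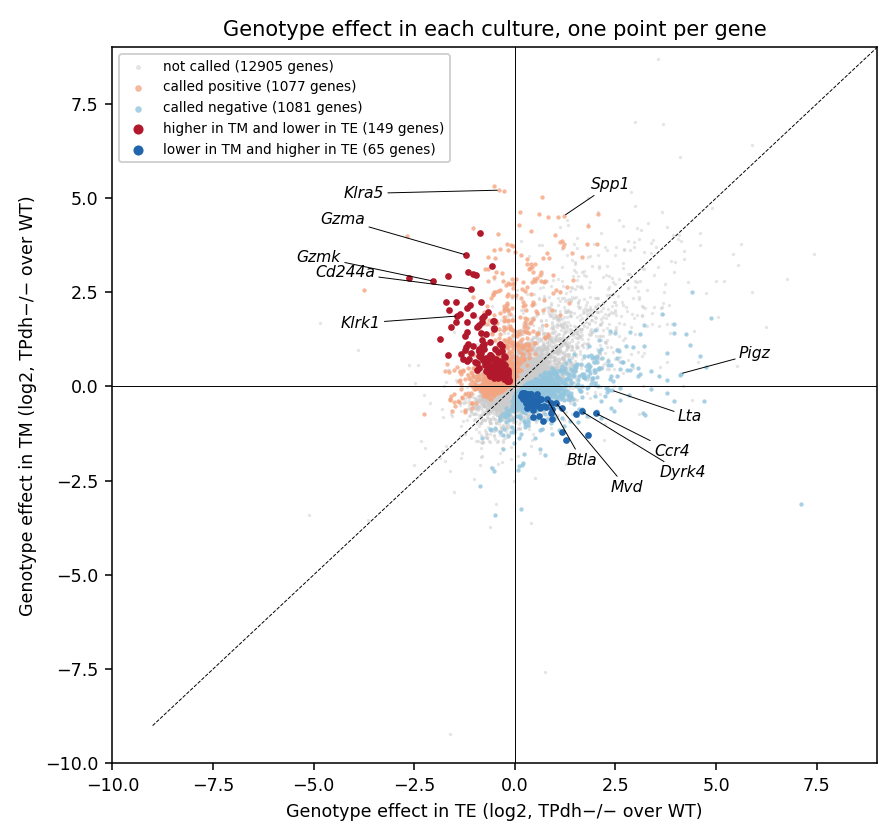
Genotype effect (log2 of TPdh−/− over WT) in TE on the x axis and in TM on the y axis, drawn as 15277 points, a gene each, with the dashed line marking equal effects. Genes called in the interaction lie off the line, and those called with opposite signs in the 2 cultures (149 in the upper left, 65 in the lower right) are drawn as larger points.

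The 149 genes that rose in TPdh−/− TM and fell in TPdh−/− TE were 0.975% of all genes tested. They included 2 of 21 killer lectin-like receptors tested, 3 of 17 innate receptors and adaptors and 4 of 17 granzymes and their partners. Klrk1 (chr6:129610323-129623864, GRCm38), which encodes the activating receptor NKG2D, read 214, 237, 224 and 194 CPM in WT TE and 86, 79.6, 98.2 and 57.6 CPM in TPdh−/− TE. In TM it read 31.2, 23.9, 27.8 and 25.7 CPM in WT and 93.1, 78.7, 120 and 106 CPM in TPdh−/− libraries. WT TE was thus the highest group and WT TM the lowest, while the TPdh−/− libraries of both cultures met in between, with no overlap of genotypes in either culture. The fall in TE was 1.43 on the log2 scale, the rise in TM was 1.87, and the interaction was 3.31 ± 0.233 (SE, adjusted p = 2.07e-07, edgeR).

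Cd244a (chr1:171559193-171609746), which encodes the SLAM family receptor 2B4, showed the same order of groups. It read 23, 22.3, 20.5 and 19.6 CPM in WT TE, 11.4, 10, 10.8 and 7.58 CPM in TPdh−/− TE, 1.68, 1.13, 1.37 and 1.43 CPM in WT TM and 9.56, 6.59, 7.84 and 9.97 CPM in TPdh−/− TM. The genotypes did not overlap in either culture, and the interaction was 3.69 ± 0.229 (adjusted p = 1.29e-08). Lat2, an adaptor of ITAM-bearing receptors, read 11.1, 11.2, 12.5 and 11.7 CPM in WT TE, 5.74, 6.45, 7.1 and 6.47 CPM in TPdh−/− TE, 0.733, 0.815, 1.22 and 0.801 CPM in WT TM and 4.87, 3.22, 3.96 and 4.69 CPM in TPdh−/− TM. Its levels in the 2 TPdh−/− groups were again between those of the WT groups (interaction 3.08 ± 0.22, adjusted p = 8.65e-08). Lyn, a Src family kinase, had an interaction of 2.27 ± 0.182 (adjusted p = 6.96e-07), and Klrc2, an NKG2 family receptor, one of 3.76 ± 0.355 (adjusted p = 1.19e-06), although the fall of Klrc2 in TE lost its call in 9 of the 17 analyses that left libraries out.

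Other functions were represented too. Gcnt1 builds the core 2 O-glycans that selectin ligands need, and Gpr183 is a receptor for oxysterols that guides lymphocyte migration. Their interactions were 2.91 (adjusted p = 2.48e-06) and 1.64 (adjusted p = 2.46e-06). Cd9, a tetraspanin, had a difference of 1.44 (adjusted p = 2.95e-06), and Stk32c, a little-studied kinase gene, one of 1.84 (adjusted p = 1.88e-06). Endod1 differed by 0.90 (adjusted p = 9.99e-07), with a rise of 0.28 in TM and a fall of 0.62 in TE.

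In WT cells, 141 of the 149 genes (94.6%) stood higher in TE than in TM, against 49.7% of all genes tested. Their median absolute gap between cultures was 1.51 on the log2 scale in WT and 0.65 in TPdh−/− cells, and the gap was smaller in TPdh−/− cells for 116 of them (77.9%). Over all genes the medians were 0.45 and 0.43, with a smaller gap in 52%. The same WT libraries entered the choice of these genes, so these shares describe them and are no test. The 65 genes of the opposite pattern stood higher in WT TM than in WT TE in 46 cases (70.8%), and their median absolute gap was 0.49 in WT and 0.64 in TPdh−/− cells.

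**Figure D2:**
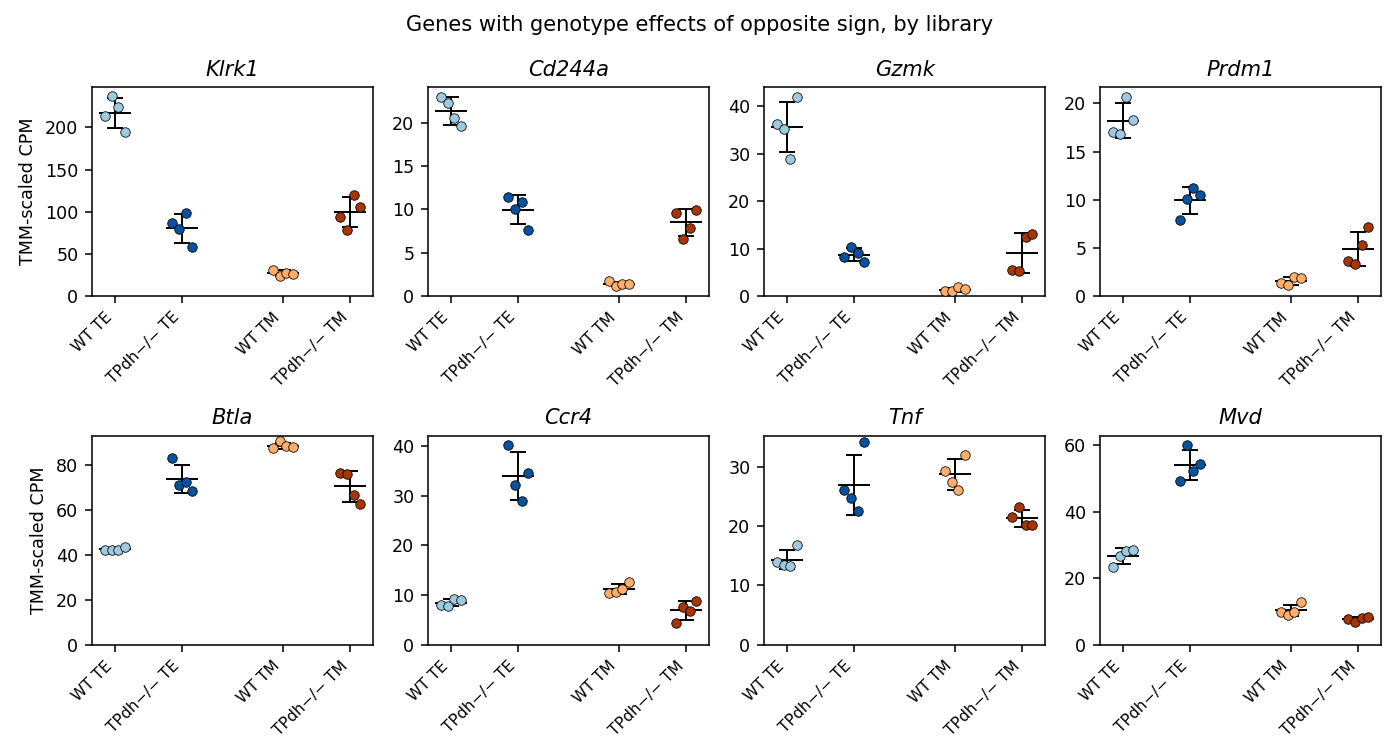
TMM-scaled CPM of 8 genes with genotype effects of opposite sign, 1 point per library and 4 libraries per group, with the mean and SD as bars. In the upper row (Klrk1, Cd244a, Gzmk and Prdm1) TPdh−/− libraries lie below WT in TE and above WT in TM, and in the lower row (Btla, Ccr4, Tnf and Mvd) the reverse.

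The promoters of opposite-sign genes were searched on both strands for short motifs. Shown are 3 promoters of positive genes that carry the interferon motif. Promoters (250 bases before to 50 bases after the start, RefSeq, GRCm38.p6) were found by symbol for 10410 of the genes tested. The core of the interferon-stimulated response element, TTTCNNTTT on either strand, was present in 22 of 110 promoters (20%) of genes that were higher in TM and lower in TE, in 15.6% of promoters of all positive genes and in 9.64% of all promoters. It stood in 2 of 51 promoters (3.92%) of the genes of the opposite pattern. The E-box CACGTG was found in 13 of those 51 (25.5%), in 16.6% of promoters of all negative genes and in 11.5% of all promoters. The STAT motif TTCNNNGAA was present in 7.27% and 11.8% of the 2 opposite-sign sets against 8.33% of all, and it can share bases with the TTTCNNTTT pattern. The motifs TGACGTCA, TGANTCA and TCACNCCAC stood in 0.909%, 10.9% and 0.909% of the first set and in 1.96%, 7.84% and 3.92% of the second, against 3.56%, 6.17% and 1.4% of all promoters. A match is a run of letters and not a bound site. The 160 bases before the start of 3 positive genes with the interferon motif are given, with the motif in capitals. Pvrig and Apol7e are opposite-sign genes, and B2m encodes the light chain of MHC class I. The windows are chr5:138341771-138341930 (plus strand), chr15:77698729-77698888 (plus strand) and chr2:122147527-122147686 (plus strand).
Pvrig: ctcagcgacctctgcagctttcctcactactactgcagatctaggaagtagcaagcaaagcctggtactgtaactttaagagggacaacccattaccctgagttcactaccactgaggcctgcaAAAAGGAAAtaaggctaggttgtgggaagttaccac
Apol7e: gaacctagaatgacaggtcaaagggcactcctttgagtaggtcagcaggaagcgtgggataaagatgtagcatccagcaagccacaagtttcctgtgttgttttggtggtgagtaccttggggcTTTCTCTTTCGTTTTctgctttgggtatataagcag
B2m: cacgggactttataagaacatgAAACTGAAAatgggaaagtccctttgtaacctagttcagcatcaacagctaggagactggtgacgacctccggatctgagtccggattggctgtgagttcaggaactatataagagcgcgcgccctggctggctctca

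Pvrig, an inhibitory receptor of the nectin pathway, read 4.29, 3.75, 3.67 and 4.57 CPM in WT TE, 1.32, 1.67, 1.66 and 1.22 CPM in TPdh−/− TE, 1.14, 0.759, 1.45 and 1.1 CPM in WT TM and 3.68, 2.95, 4.05 and 3.96 CPM in TPdh−/− TM. The TPdh−/− TM libraries thus lay near the WT TE level and the TPdh−/− TE libraries near the WT TM level (interaction 3.18 ± 0.254, adjusted p = 2.91e-07). Apol7e, of the apolipoprotein L family, read 129, 106, 106 and 90.4 CPM in WT TE against 39.5, 48, 49.9 and 38.5 CPM in TPdh−/− TE, and 80.8, 81.1, 75.9 and 71.5 CPM in WT TM against 149, 112, 129 and 124 CPM in TPdh−/− TM. The genotypes did not overlap in either culture (interaction 2.03 ± 0.172, adjusted p = 3.54e-07). In the promoter shown for Pvrig the motif begins 36 bases before the start and runs on the opposite strand. In that of Apol7e 2 overlapping copies begin 36 and 30 bases before the start. In that of B2m the motif begins 138 bases before the start, also on the opposite strand.

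Killer proteins and the receptors of natural killer (NK) cells were called in the positive direction alone. Among all genes tested 8.03% were positive and 7.5% negative, the background for each list count of the interaction here and below. Of 21 killer lectin-like receptor genes tested, 12 were called positive and 0 negative. Differences were above 0 at 17 of 17 members counted more than 3 times in every group. In TPdh−/− TE 8 of the 21 receptor genes were called higher and 3 lower, and in TPdh−/− TM 19 higher and 0 lower. In either direction the genotype contrast called 31.4% of all genes in TE and 18.3% in TM. Of 17 granzyme, perforin and partner genes 9 were positive and 0 negative, and of 17 innate receptor and adaptor genes 11 were positive and 0 negative. Gzmk (chr13:113171608-113225908), a tryptase-like granzyme of early memory cells, read 36.4, 35.3, 29 and 42 CPM in WT TE and 8.25, 10.4, 8.97 and 7.08 CPM in TPdh−/− TE, against 0.967, 0.944, 1.85 and 1.45 CPM in WT TM and 5.45, 5.31, 12.5 and 13.1 CPM in TPdh−/− TM. Both cultures separated the genotypes, with a fall of 2.04 in TE and a rise of 2.80 in TM (interaction 4.84 ± 0.455, adjusted p = 4.67e-06).

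Gzma, on the same chromosome and the more abundant tryptase-like granzyme, read 898, 926, 967 and 982 CPM in WT TE, 426, 427, 433 and 345 CPM in TPdh−/− TE, 25.8, 12.1, 50.9 and 28.2 CPM in WT TM and 198, 202, 399 and 517 CPM in TPdh−/− TM. No library overlapped with the other genotype in its culture (interaction 4.70 ± 0.557, adjusted p = 8.75e-05), but the fall in TE was not called without TPdh−/− TE library 8 (adjusted p = 0.0607) or without libraries 5 and 12 (adjusted p = 0.0568). Fasl, the death receptor ligand, differed by 2.05 (adjusted p = 2.54e-05) and Serpinb9, which protects killer cells from granzyme B, by 1.33 (adjusted p = 0.000125). Gzmc, a granzyme of strongly activated cells, differed by 5.44 (adjusted p = 0.00184), with 2.98 to 20.3 CPM in TPdh−/− TM against 0.148 to 0.284 CPM in WT TM and overlapping genotypes in TE, and by 4.41 without TPdh−/− TM library 16.

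The killer genes were not uniform. Prf1, which encodes perforin and was chosen after its values were seen, rose in both cultures, from 16.9, 16.9, 18.5 and 18.9 to 43.7, 36.1, 39.6 and 36 CPM in TE and from 13.9, 12.2, 13.3 and 17.8 to 27.1, 25, 29.3 and 35.1 CPM in TM. Both rises were close in size, 1.13 and 1.03 on the log2 scale, and the interaction was −0.10 ± 0.176 (adjusted p = 0.727). Gzmb had an interaction of 1.35 ± 0.522 that missed the threshold (adjusted p = 0.0809) but was called by DESeq2 (adjusted p = 0.0346) and, at 1.56, without TPdh−/− TM library 13.

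Klra5, a Ly49 receptor gene within the NK gene complex of chromosome 6, had the largest positive difference of the genes named here. It read 0.937, 1.15, 1.26 and 1.63 CPM in WT TE, 1.23, 0.849, 0.915 and 0.806 CPM in TPdh−/− TE, 0.0312, 0.037, 0.0171 and 0.05 CPM in WT TM and 1.12, 1.03, 1.37 and 1.77 CPM in TPdh−/− TM. WT TM held only 8 counts over its 4 libraries, so the fitted difference of 5.60 ± 0.31 (adjusted p = 2.24e-07) rests on a near-absent baseline, and on log2(TPM + 0.5) it was 2.27. Ly49 genes are near-identical copies, and reads of one may be assigned to another. Klrd1, which encodes CD94, the partner of the NKG2 receptors, took the other route. It read 468, 441, 467 and 411 CPM in WT TE, 108, 134, 173 and 119 CPM in TPdh−/− TE, 115, 104, 104 and 77 CPM in WT TM and 113, 118, 151 and 148 CPM in TPdh−/− TM. Only WT TE stood apart, and the interaction of 2.15 ± 0.226 (adjusted p = 3.79e-06) came with a fall of 1.74 in TE beside a change of 0.41 in TM that was not called (adjusted p = 0.0567).

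Tyrobp, the adaptor DAP12 of activating NK receptors, rose in both cultures and more in TM. It read 0.718, 0.585, 0.655 and 0.641 CPM in WT TE, 1.46, 1.01, 1.49 and 2.1 CPM in TPdh−/− TE, 0.842, 0.703, 1.15 and 0.484 CPM in WT TM and 12.4, 7.77, 10.2 and 13.3 CPM in TPdh−/− TM. The TPdh−/− TM libraries were more than 3 times any other library, and the interaction was 2.57 ± 0.373 (adjusted p = 7.74e-05). Fcer1g, the gamma chain of Fc receptors, differed by 3.32 (adjusted p = 2.44e-06) with a change of 0.16 in TE that was not called (adjusted p = 0.613). Cd160, a receptor of cytotoxic cells, differed by 1.87 (adjusted p = 8.31e-06) and fell by 1.13 in TE.

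Marker lists of other cell types were summed, and some of their members are genes already counted above. The summed level of 9 NK cell markers was 34.5 ± 5.17 TPM (SD, n = 4) in WT TM and 142 ± 22.8 TPM in TPdh−/− TM, against 54.8 ± 6.42 and 49.9 ± 2.84 TPM in TE. Of the 9 markers, 5 were called positive in the interaction. These were Klrb1c, Klre1, Fcer1g, Tyrobp and Eomes. All are also on the killer receptor, innate receptor or transcription factor lists, so they are no separate evidence. Most of the sum in TE was Eomes, at 43.5 TPM in WT and 30.1 TPM in TPdh−/− cells, whereas in TM it was at 26.1 and 30.9 TPM. In TPdh−/− TE 6 of the 9 markers were called higher and 1 lower, and in TPdh−/− TM 8 higher and 0 lower. Counting both directions, 31.4% of all genes were called in TE and 18.3% in TM. Of the defining members, Ncr1 went from 0.593 to 7.95 TPM in TM and from 0.0025 to 0.293 TPM in TE. The summed level of 12 macrophage and monocyte markers was 6.18 ± 0.587 and 34.2 ± 7.49 TPM in TM and 10.1 ± 1.28 and 19.7 ± 4.48 TPM in TE. In TPdh−/− TM most of that sum was Lyz2, at 24.1 TPM against 2.73 TPM in WT TM, whereas in TE most was Cd68, at 8.23 and 11.9 TPM. Csf1r, Adgre1 and Mrc1 were at 0.532 TPM or less in every group, and 0 of the 7 members tested were called in the interaction. The 7 gamma-delta T cell markers summed to 63.5 ± 4.51 and 214 ± 25.5 TPM in TM and to 102 ± 5.36 and 256 ± 50.6 TPM in TE, with 5 of 7 called positive. The 8 dendritic cell markers summed to 5.08 ± 1.19 and 21.5 ± 6.39 TPM in TM and to 22.4 ± 4.54 and 14.9 ± 2.59 TPM in TE. Flt3, Cd209a and Siglech were under 0.1 TPM everywhere. Of the 4 members tested, Xcr1, Itgax and H2-Ab1 were called positive. Xcr1 and Itgax are also on the chemokine receptor and the integrin list. Each of these sums differed between genotypes in TM with no overlap of libraries (exact 2-sided permutation p = 0.0286, the smallest that 4 against 4 libraries can give, and 0.0571 after adjustment over 24 tests). The part of other cells in the interaction was not tested. In bulk samples more cells of a type and more RNA per cell cannot be told apart. CD8 T cell markers summed to 5384 ± 90.5 and 4410 ± 67.2 TPM in TM and to 4354 ± 112 and 3758 ± 112 TPM in TE.

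**Figure D3:**
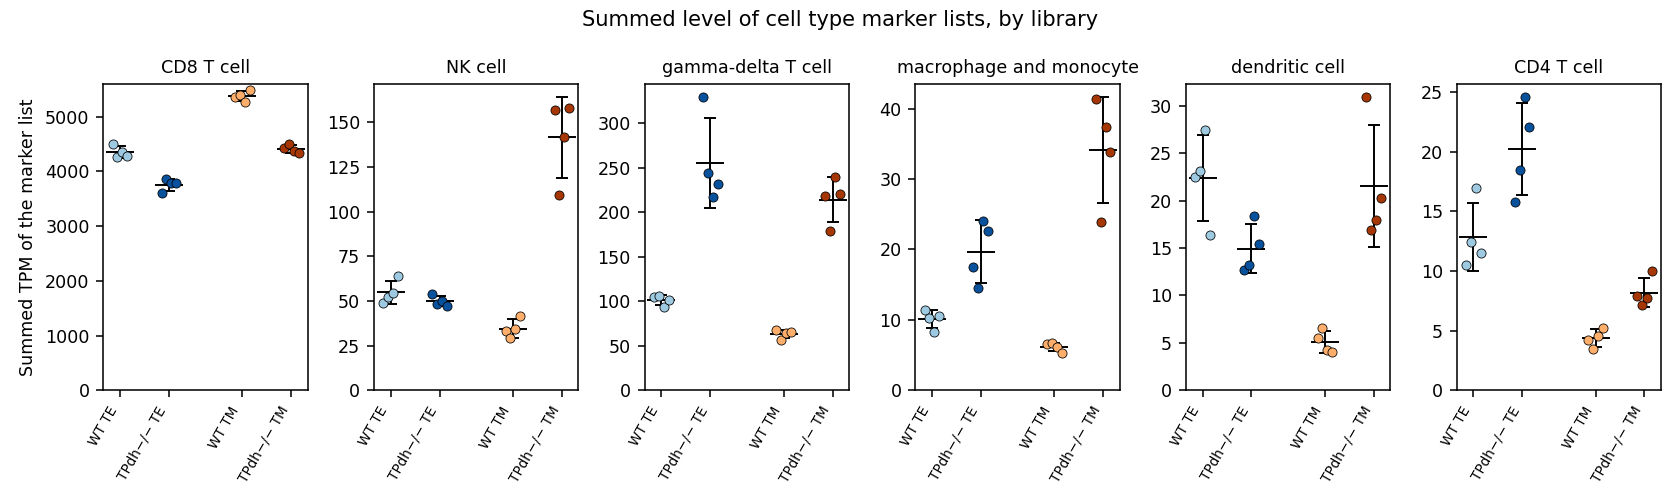
Summed TPM of 6 marker lists by library, 4 libraries per group, with the mean and SD as bars and each axis starting at 0. NK cell markers lie between 109 and 158 TPM in TPdh−/− TM and at 63.9 TPM or less in all other libraries, whereas CD8 T cell markers are at 3597 TPM or more in every library.

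Transcription factors of effector and memory differentiation had more positive than negative calls. Of 40 effector and memory factors tested, 14 were positive and 4 negative, against 8.03% and 7.5% of all genes. Prdm1, which encodes BLIMP-1, a repressor that drives terminal effector differentiation, read 17, 16.8, 20.7 and 18.3 CPM in WT TE, 7.87, 10.1, 11.2 and 10.5 CPM in TPdh−/− TE, 1.31, 1.15, 1.97 and 1.87 CPM in WT TM and 3.66, 3.31, 5.3 and 7.13 CPM in TPdh−/− TM. The genotypes were apart in both cultures and in opposite directions (interaction 2.50 ± 0.34, adjusted p = 3.07e-05). Id2, an inhibitor of E proteins that supports effector cells, read 312, 307, 306 and 301 CPM in WT TE, 252, 240, 234 and 226 CPM in TPdh−/− TE, 124, 94, 135 and 119 CPM in WT TM and 220, 194, 315 and 312 CPM in TPdh−/− TM. Its interaction was 1.51 ± 0.213 (adjusted p = 4.69e-05), while the call of its fall in TE was lost in 9 of 17 analyses that left libraries out. Nfil3, Bhlhe40 and Irf8 were positive as well, by 1.33, 0.82 and 1.01.

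Eomes, the T-box factor of memory and NK cells, read 117, 126, 130 and 150 CPM in WT TE against 95.6, 93.8, 77.5 and 60.9 CPM in TPdh−/− TE, and 67.4, 59.9, 67.2 and 80.4 CPM in WT TM against 83, 71.2, 100 and 83.5 CPM in TPdh−/− TM. The genotypes were apart in TE only, and the interaction was 0.97 ± 0.215 (adjusted p = 0.00225). Its close relative Tbx21 was not called (0.16 ± 0.161, adjusted p = 0.492), nor was Tcf7, which encodes the memory factor TCF-1 and ranged from 276 to 510 CPM in TPdh−/− TE (−0.08 ± 0.24, adjusted p = 0.838). The negative members were Zbtb32, Id3, Tox and Klf3. Zbtb32, a repressor of memory responses, fell by 1.49 in TM beside a change of −0.03 in TE (interaction −1.46, adjusted p = 4.55e-05).

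Inhibitory receptors had more positive than negative calls as well. Of 19 tested, 10 were positive and 2 negative, against 8.03% and 7.5% of all genes. Havcr2, which encodes TIM-3, read 32.7, 28.7, 33.5 and 34.7 CPM in WT TE, 23.1, 23.2, 29.3 and 25.5 CPM in TPdh−/− TE, 0.39, 0.167, 0.565 and 0.55 CPM in WT TM and 3.71, 3.04, 6.63 and 8.06 CPM in TPdh−/− TM. The genotypes overlapped in TE and were apart in TM, where TPdh−/− cells stayed below either TE group (interaction 4.02 ± 0.506, adjusted p = 1.1e-05). Tigit read 28.8, 28.4, 29.8 and 33 CPM in WT TE, 9.31, 11.8, 12.3 and 12.9 CPM in TPdh−/− TE, 4.96, 4.48, 5.25 and 5.72 CPM in WT TM and 5.95, 4.96, 7.99 and 7.79 CPM in TPdh−/− TM, so that the genotypes were apart in TE and overlapped in TM (interaction 1.76 ± 0.213, adjusted p = 6.32e-06).

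Ctla4, which competes with Cd28 for its ligands, read 497, 459, 488 and 405 CPM in WT TE, 191, 237, 287 and 212 CPM in TPdh−/− TE, 107, 133, 133 and 132 CPM in WT TM and 110, 135, 109 and 129 CPM in TPdh−/− TM. The genotypes were apart in TE and overlapped in TM (interaction 0.93 ± 0.181, adjusted p = 0.000679). Lag3, a further checkpoint receptor, fell in both cultures. It read 83.1, 80.9, 82.1 and 69.2 CPM in WT TE, 13.4, 18.8, 19.8 and 13.8 CPM in TPdh−/− TE, 14.8, 13.1, 16.8 and 19 CPM in WT TM and 8.89, 8.64, 9.63 and 11.2 CPM in TPdh−/− TM. The fall of 2.26 in TE was larger than that of 0.73 in TM (interaction 1.52 ± 0.213, adjusted p = 4.12e-05).

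Homing genes had calls of both signs. Of 24 tested, 9 were positive and 4 negative, against 8.03% and 7.5% of all genes. Ccr7, a receptor for lymph node chemokines, was not called (0.00 ± 0.108, adjusted p = 0.994). Ly6c2, a surface protein of activated memory cells, read 559, 408, 450 and 491 CPM in WT TE, 253, 232, 335 and 238 CPM in TPdh−/− TE, 229, 141, 272 and 183 CPM in WT TM and 342, 400, 705 and 772 CPM in TPdh−/− TM. The genotypes were apart in both cultures and in opposite directions (interaction 2.28 ± 0.39, adjusted p = 0.000951), and the fall in TE lost its call in 5 of the 17 analyses that left libraries out.

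Adhesion and chemokine genes had more positive than negative calls. Itga1, the alpha chain of the collagen receptor VLA-1 of tissue-resident cells, read 5.78, 4.97, 5.93 and 4.94 CPM in WT TE, 1.8, 1.78, 2.49 and 3.62 CPM in TPdh−/− TE, 1.98, 0.981, 2.98 and 1.62 CPM in WT TM and 12.7, 9.78, 13.3 and 26.4 CPM in TPdh−/− TM. TPdh−/− TM was the highest of the 4 groups, the fall in TE was not called without libraries 5 and 12 (adjusted p = 0.064), and the interaction was 4.20 ± 0.511 (adjusted p = 3.46e-05). Of 17 chemokine receptors 7 were positive and 1 negative, and of 12 chemokines 5 were positive and 0 negative. The shares over all genes were 8.03% and 7.5%. Xcr1, the receptor for XCL1, differed by 2.51 (adjusted p = 1.02e-05), Ccl3 by 4.03 (adjusted p = 5.44e-06) and Ccl4 by 2.94 (adjusted p = 1.88e-06). Of 29 integrin and adhesion genes 11 were positive and 4 negative, with Itgb1 at 1.04 and Itgam at 3.25.

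The negative genes of opposite sign fell in TPdh−/− TM and rose in TPdh−/− TE. Btla, an inhibitory receptor of resting lymphocytes, read 41.9, 42.2, 41.9 and 43.4 CPM in WT TE, 83, 71.1, 72.5 and 68.6 CPM in TPdh−/− TE, 87.4, 90.5, 88.3 and 88.2 CPM in WT TM and 76.2, 76, 66.8 and 62.7 CPM in TPdh−/− TM. WT TE was the lowest group and WT TM the highest, with no overlap of genotypes in either culture (interaction −1.13 ± 0.0933, adjusted p = 5.31e-07). Ccr4, a chemokine receptor better known from type 2 and regulatory T cells, read 7.93, 7.79, 9.23 and 8.89 CPM in WT TE, 40.3, 32.1, 29 and 34.6 CPM in TPdh−/− TE, 10.4, 10.6, 11.3 and 12.7 CPM in WT TM and 4.37, 7.62, 6.75 and 8.73 CPM in TPdh−/− TM. TPdh−/− TE was the highest group by far (interaction −2.72 ± 0.253, adjusted p = 5.31e-07).

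Tnf, the inflammatory cytokine, read 13.9, 13.4, 13.3 and 16.8 CPM in WT TE, 26.1, 24.7, 22.6 and 34.2 CPM in TPdh−/− TE, 29.4, 27.5, 26.1 and 32.1 CPM in WT TM and 21.6, 23.3, 20.2 and 20.2 CPM in TPdh−/− TM. The genotypes did not overlap in either culture, and the interaction was −1.34 ± 0.171 (adjusted p = 1.83e-05). Its neighbour on chromosome 17, Lta, which encodes lymphotoxin alpha, read 11.1, 9.97, 12.3 and 11.1 CPM in WT TE, 91.4, 60.8, 40.2 and 43.1 CPM in TPdh−/− TE, 15.8, 18.4, 17.7 and 16.9 CPM in WT TM and 17, 16.2, 16.9 and 14.1 CPM in TPdh−/− TM. Only TPdh−/− TE stood apart (interaction −2.51 ± 0.289, adjusted p = 2.33e-05). Among the other genes of this pattern, Hmgn1, a nucleosome-binding protein, differed by −1.06 (adjusted p = 4.99e-06), Dhx58, a sensor of the RIG-I family, by −0.76 (adjusted p = 0.000127), and Dyrk4, a protein kinase, by −2.32 (adjusted p = 8.81e-06).

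Most negative genes had a call in TE and none in TM, which does not show that they were unchanged in TM. She, an SH2 domain adaptor, read 0.593, 0.536, 0.831 and 0.52 CPM in WT TE, 7.56, 5.9, 7 and 5.29 CPM in TPdh−/− TE, 1.5, 1.52, 1.54 and 2.14 CPM in WT TM and 1.41, 2.15, 1.42 and 1.4 CPM in TPdh−/− TM. The TE genotypes were apart by 3.37 on the log2 scale and the TM genotypes overlapped (interaction −3.44 ± 0.269, adjusted p = 3.54e-07). Slc15a1, the intestinal peptide transporter, and Pigz, an enzyme of GPI anchor synthesis, had interactions of −3.98 ± 0.522 (adjusted p = 0.000514) and −3.78 ± 0.281 (adjusted p = 5.31e-07). Slc15a1 was between 2.62 and 6.34 CPM in TPdh−/− TE and at 0.641 CPM or less in every other library. Pigz was at 0.16 CPM or less in WT TE and between 1.63 and 3.15 CPM in every other library, so it was the WT TE group that stood apart.

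For Bcl2, Cdk6 and Cish the genotypes were also apart in TE alone, while the lists of these genes had calls of both signs. Of 16 BCL2 family genes 3 were positive and 2 negative. For 25 G1 genes the counts were 5 and 3, and for 24 STAT and SOCS genes 5 and 4. The shares over all genes were 8.03% and 7.5%. Bcl2, which protects resting lymphocytes from apoptosis, read 413, 435, 447 and 417 CPM in WT TE, 841, 745, 649 and 674 CPM in TPdh−/− TE, 1119, 1198, 1118 and 1045 CPM in WT TM and 1227, 1213, 1065 and 1042 CPM in TPdh−/− TM. TPdh−/− TE lay between WT TE and the TM groups, which overlapped (interaction −0.74 ± 0.115, adjusted p = 0.000173). Cdk6, a kinase that drives cells out of G1, read 209, 234, 211 and 218 CPM in WT TE, 574, 461, 381 and 416 CPM in TPdh−/− TE, 497, 531, 479 and 476 CPM in WT TM and 556, 615, 505 and 440 CPM in TPdh−/− TM, with WT TE again the group apart (−0.98 ± 0.172, adjusted p = 0.000322). Cish, a feedback inhibitor induced by STAT5, read 91, 99.9, 91.8 and 90.5 CPM in WT TE, 198, 181, 143 and 207 CPM in TPdh−/− TE, 185, 196, 182 and 192 CPM in WT TM and 186, 187, 181 and 237 CPM in TPdh−/− TM (−0.90 ± 0.154, adjusted p = 0.000236). For each of these genes the TPdh−/− libraries were above all WT libraries in TE and overlapped with WT in TM.

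Cytokine and receptor genes were on both sides. Osm, which encodes oncostatin M, read 15.4, 16, 14.7 and 15.8 CPM in WT TE, 52, 38.8, 31.3 and 36.1 CPM in TPdh−/− TE, 45.7, 40.3, 44.6 and 50.8 CPM in WT TM and 37.4, 41.3, 35.3 and 38.4 CPM in TPdh−/− TM (−1.60 ± 0.178, adjusted p = 4.67e-06). WT TE was the low group. Il2rb, the beta chain that IL-2 and IL-15 share and a gene chosen after its values were seen, read 1330, 1490, 1467 and 1533 CPM in WT TE, 1280, 1243, 1157 and 949 CPM in TPdh−/− TE, 800, 764, 752 and 972 CPM in WT TM and 855, 875, 952 and 985 CPM in TPdh−/− TM. TPdh−/− libraries were all lower in TE and overlapped in TM (0.49 ± 0.145, adjusted p = 0.0174). Of 31 cytokine receptors tested 9 were positive and 6 negative, against 8.03% and 7.5% of all genes. Il2ra was not called (−0.25 ± 0.189, adjusted p = 0.342). Foxp3, the regulatory T cell factor, also chosen after its values were seen, ranged from 4.14 to 21.4 CPM in TPdh−/− TE, from 0.703 to 1.28 CPM in WT TE, from 1.42 to 2.14 CPM in WT TM and from 1.58 to 4.51 CPM in TPdh−/− TM. The TE genotypes were apart and the TM genotypes overlapped (−2.90 ± 0.672, adjusted p = 0.00664).

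Lists of lipid synthesis and of amino acid use had the highest shares of negative calls. Of 36 genes of cholesterol synthesis, uptake and efflux 21 were called negative and 2 positive, against 7.5% and 8.03% of all genes. The median member had a genotype effect of 0.51 in TE and 0.00 in TM. Of 24 genes that supply acetyl-CoA or build fatty acids 9 were negative and 1 positive, of 35 amino acid stress and ATF4 target genes 14 were negative and 0 positive, of 22 aminoacyl-tRNA synthetases 11 and 1, and of 48 MYC and ribosome biogenesis factors 14 and 1. Of 25 genes of glutamine and aspartate metabolism 8 were negative and 1 positive. Soat1, which stores cholesterol as esters, and Mylip, which degrades the LDL receptor, were the 2 positive members of the cholesterol list.

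**Figure D4:**
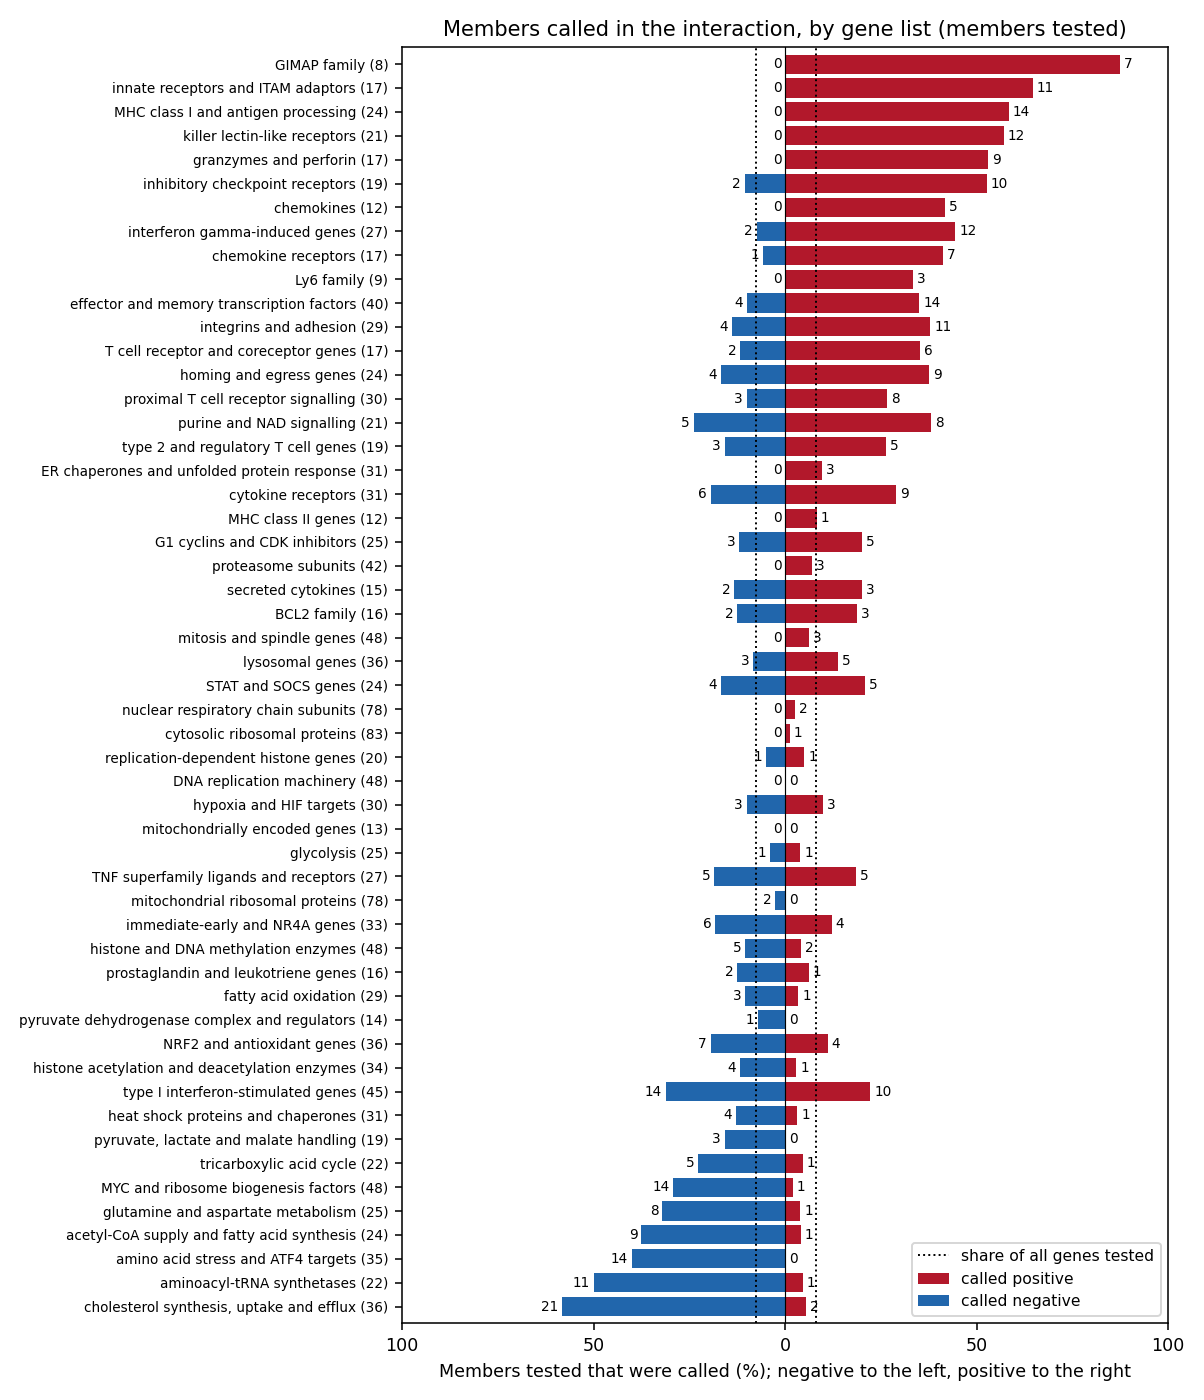
Share of the tested members of each of 53 gene lists that were called positive (right) or negative (left) in the interaction, with the number called at each bar and the number tested in parentheses. Dotted lines mark the shares among all genes tested, 8.03% and 7.5%, and the bars reach farthest right for GIMAP genes (7 of 8) and farthest left for cholesterol genes (21 of 36).

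The promoters of 3 negative genes of lipid synthesis are shown for a motif that was noticed after the data were seen. The CCAAT box, searched as CCAAT on both strands, stood in 14 of 15 promoters (93.3%) of cholesterol genes called negative, in 21 of 26 (80.8%) of all cholesterol genes tested and in 43% of all promoters, so it marks the pathway as a whole as well as its called members. The sterol element TCACNCCAC stood in 1 of the 26 cholesterol promoters, that of Hmgcs1. Capitals mark CCAAT or its reverse ATTGG in all 3 windows and, in Hmgcs1, also the sterol element that begins 137 bases before the start. The windows are the 160 bases before the start at chr8:122443423-122443582 (minus strand), chr11:120824548-120824707 (minus strand) and chr13:119690191-119690350 (plus strand) of GRCm38.p6, from RefSeq.
Mvd: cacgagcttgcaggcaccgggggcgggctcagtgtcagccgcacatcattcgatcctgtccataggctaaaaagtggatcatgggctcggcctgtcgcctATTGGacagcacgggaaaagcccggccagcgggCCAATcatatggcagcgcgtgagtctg
Fasn: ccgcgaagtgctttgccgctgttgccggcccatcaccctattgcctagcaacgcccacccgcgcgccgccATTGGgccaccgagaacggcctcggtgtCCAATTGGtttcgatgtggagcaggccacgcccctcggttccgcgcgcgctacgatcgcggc
Hmgcs1: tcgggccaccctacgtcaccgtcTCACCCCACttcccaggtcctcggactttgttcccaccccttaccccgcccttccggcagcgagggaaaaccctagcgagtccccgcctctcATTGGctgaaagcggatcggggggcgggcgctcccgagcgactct

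Mvd, the mevalonate diphosphate decarboxylase of cholesterol synthesis, read 23.3, 26.6, 28 and 28.5 CPM in WT TE, 49.2, 60.1, 52.3 and 54.3 CPM in TPdh−/− TE, 9.69, 9.02, 9.91 and 12.7 CPM in WT TM and 7.64, 6.67, 7.99 and 8.38 CPM in TPdh−/− TM. It was one of the opposite-sign genes, with no overlap of genotypes in either culture (interaction −1.45 ± 0.157, adjusted p = 3.35e-06). Hmgcs1, the synthase that supplies HMG-CoA and a gene chosen after its values were seen, read 345, 356, 344 and 398 CPM in WT TE, 754, 760, 570 and 707 CPM in TPdh−/− TE, 112, 99, 107 and 127 CPM in WT TM and 88, 120, 123 and 134 CPM in TPdh−/− TM. It rose in TE and overlapped in TM (−0.89 ± 0.188, adjusted p = 0.00125), as did Msmo1, Acat2 and Fdft1 of the same pathway, whose interactions were −0.87, −1.07 and −0.73.

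Fasn, the fatty acid synthase, read 198, 250, 249 and 248 CPM in WT TE, 632, 631, 418 and 463 CPM in TPdh−/− TE, 165, 138, 139 and 249 CPM in WT TM and 114, 119, 111 and 126 CPM in TPdh−/− TM. The interaction was −1.74 ± 0.268 (adjusted p = 0.000213). The genotypes did not overlap in TM either, yet the fall of 0.56 in TM (adjusted p = 0.0358) lost its call in 7 analyses that left libraries out. The TM change was −0.33 on the log2 scale without WT library 12 (adjusted p = 0.121), which was well above its partners. The change was −0.53 to −0.59 without library 9, 13, 14, 15 or 16. Acaca, which makes malonyl-CoA for Fasn, differed by −1.06 (adjusted p = 0.000198) and the elongases Elovl6 and Elovl5 by −1.07 and −0.45.

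Among genes that respond to amino acid shortage, Slc7a5, the large neutral amino acid transporter, read 65, 82.7, 79.3 and 89.1 CPM in WT TE, 206, 191, 127 and 159 CPM in TPdh−/− TE, 53.5, 45.9, 44.2 and 58.2 CPM in WT TM and 40.3, 45, 43.2 and 43.4 CPM in TPdh−/− TM. TPdh−/− TE stood above all other libraries, and the TM genotypes overlapped (interaction −1.34 ± 0.209, adjusted p = 0.000125). Atf4, the transcription factor of this response, read 158, 152, 158 and 160 CPM in WT TE, 234, 225, 193 and 247 CPM in TPdh−/− TE, 105, 105, 110 and 110 CPM in WT TM and 99.3, 96, 106 and 104 CPM in TPdh−/− TM (−0.61 ± 0.0857, adjusted p = 0.000122). Cars, the cysteinyl-tRNA synthetase, read 42.4, 44.3, 46.3 and 47.6 CPM in WT TE, 68, 68.1, 62.1 and 72 CPM in TPdh−/− TE, 22.6, 19.8, 21 and 23.7 CPM in WT TM and 18.6, 19.3, 20.1 and 21.4 CPM in TPdh−/− TM (−0.71 ± 0.0919, adjusted p = 5.57e-05). All of these genes had their highest group in TPdh−/− TE. Qars, the glutaminyl-tRNA synthetase, was the positive member of its list. Myc was not called (−0.34 ± 0.209, adjusted p = 0.24), while its targets Odc1, of polyamine synthesis, and Nop2, of ribosome assembly, differed by −0.58 and −0.70. The number of negative ribosome biogenesis genes moved with the analysis, from 6 with no filter on low counts to 26 on TPM without further scaling.

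**Figure D5:**
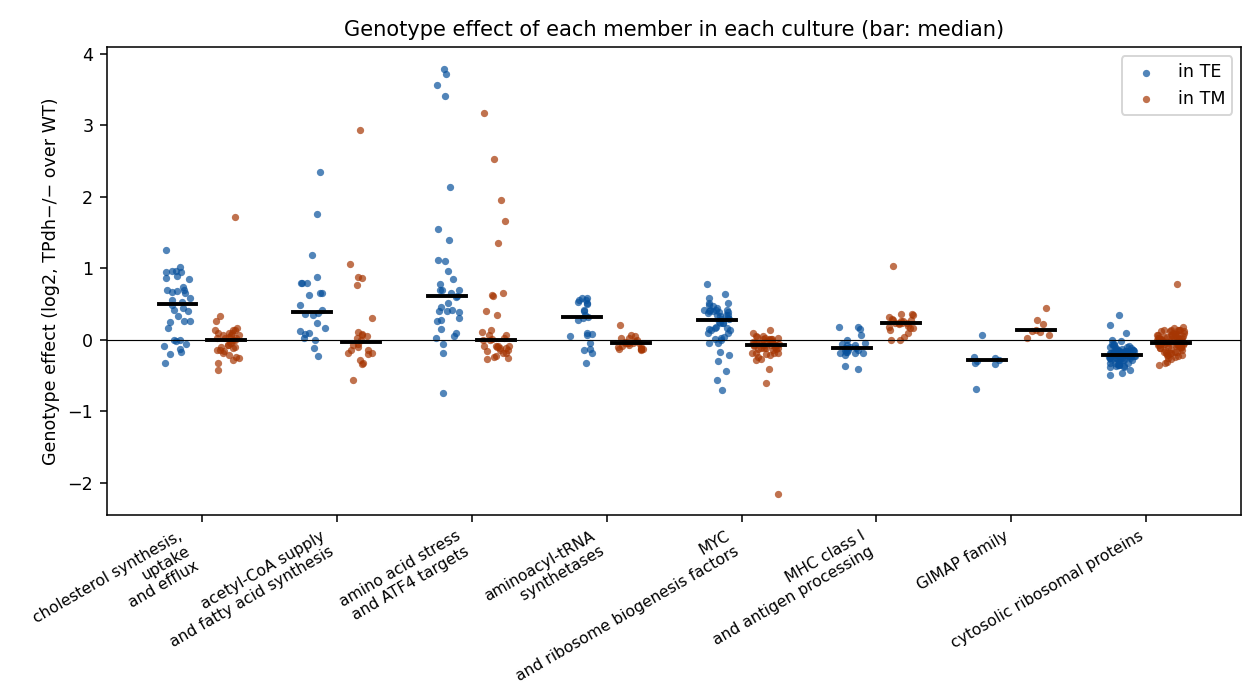
Genotype effect (log2 of TPdh−/− over WT) of each member of 8 gene lists in TE (blue) and in TM (orange), with a bar at the median and members of 3 counts or fewer in a group left out. For cholesterol genes the median is 0.51 in TE and 0.00 in TM, whereas for MHC class I genes it is −0.12 in TE and 0.24 in TM.

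Interferon genes parted by type. Of 27 genes induced by interferon gamma 12 were positive and 2 negative, against 8.03% and 7.5% of all genes. Of the 27 genes, 26 were called higher and 0 lower in TPdh−/− TM, and 20 higher and 0 lower in TPdh−/− TE. The genotype contrast called 18.3% of all genes in TM and 31.4% in TE, counting both directions. The called members of this list took several routes. Irf1, the factor through which interferon gamma acts, read 161, 150, 133 and 135 CPM in WT TE, 136, 130, 134 and 122 CPM in TPdh−/− TE, 156, 158, 161 and 164 CPM in WT TM and 308, 259, 291 and 329 CPM in TPdh−/− TM. The genotypes overlapped in TE and were apart in TM (1.05 ± 0.104, adjusted p = 2.46e-06). Ifng itself was not called (0.63 ± 0.326, adjusted p = 0.15), though it was, at 0.85, without TPdh−/− TE library 5.

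Genes known mainly as targets of type I interferon went both ways, with 10 of 45 positive and 14 negative. The shares over all genes were 8.03% and 7.5%. Ifit1, which binds foreign RNA, read 3.94, 3.15, 3.11 and 3.5 CPM in WT TE, 12.4, 8.18, 9.39 and 13.3 CPM in TPdh−/− TE, 5.93, 6.5, 5.15 and 4 CPM in WT TM and 5.74, 4.12, 5.72 and 6.25 CPM in TPdh−/− TM. It rose in TE and overlapped in TM (−1.64 ± 0.272, adjusted p = 0.000175). Isg15, a ubiquitin-like modifier chosen after its values were seen, showed the same pattern with 11.7 to 17.2 CPM in TPdh−/− TE and 4.66 to 9.64 CPM in all other libraries (−0.99 ± 0.241, adjusted p = 0.00411). The positive members included Ifit1bl1, Ifit2 and genes of the Ifi200 family on chromosome 1.

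MHC class I genes were called in 1 direction. Of 24 genes of the heavy chains, B2m, peptide loading and the immunoproteasome 14 were positive and 0 negative, against 8.03% and 7.5% of all genes. The difference was above 0 for 23 of the 24. H2-Q6, a class Ib heavy chain, read 333, 297, 317 and 276 CPM in WT TE, 216, 233, 255 and 241 CPM in TPdh−/− TE, 304, 282, 312 and 274 CPM in WT TM and 403, 352, 395 and 360 CPM in TPdh−/− TM. It was of opposite sign with no overlap (0.74 ± 0.102, adjusted p = 6.66e-05), though class I genes resemble each other and share reads. B2m, named for its promoter after its values were seen, read 2538, 2322, 2238 and 2253 CPM in WT TE, 2134, 2010, 2008 and 2141 CPM in TPdh−/− TE, 2361, 2276, 2534 and 1857 CPM in WT TM and 2593, 2595, 2914 and 2869 CPM in TPdh−/− TM. Genotypes did not overlap, though the change of −0.17 in TE was not called (adjusted p = 0.107) and the rise in TM was 0.28 (interaction 0.45 ± 0.117, adjusted p = 0.01). Of 42 proteasome subunits tested 3 were positive and 0 negative (7.14% called), below the 15.5% of all genes. They were Psmb8, Psmb9 and Psmb10, of the immunoproteasome that interferon induces, and are among the 14 genes counted above. Psmb9 lost its call without WT TM library 10, and Psmb10 without WT TE library 2 or 3 or WT TM library 10. On TPM without further scaling 3 class I genes were positive and 1 negative, and with TMM factors 15 and 0.

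The GIMAP genes, a cluster of GTPases of resting lymphocytes on chromosome 6, had the highest share called. Of 8 tested 7 were positive, and the median member changed by −0.29 in TE and 0.13 in TM. Gimap7 read 290, 256, 269 and 247 CPM in WT TE, 157, 162, 180 and 159 CPM in TPdh−/− TE, 153, 134, 184 and 143 CPM in WT TM and 164, 193, 239 and 235 CPM in TPdh−/− TM. The genotypes were apart in TE and overlapped in TM at 1 library (1.13 ± 0.176, adjusted p = 0.000108). On TPM without further scaling 2 of the 8 were called positive.

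Some genes changed in the same direction in both cultures and differed in size. Spp1, which encodes osteopontin, read 12.6, 11.3, 13.1 and 13.9 CPM in WT TE, 26, 24.6, 25.7 and 42.1 CPM in TPdh−/− TE, 1.06, 1.18, 1.64 and 1.93 CPM in WT TM and 29.7, 26.9, 30.3 and 47.8 CPM in TPdh−/− TM. Both TPdh−/− groups reached a like level from different WT levels (3.31 ± 0.332, adjusted p = 5.44e-06). P2rx4, an ATP-gated channel, read 1.44, 1.35, 1.26 and 1.09 CPM in WT TE, 4.99, 5.02, 6.01 and 7.22 CPM in TPdh−/− TE, 3.76, 4.31, 4.86 and 5.09 CPM in WT TM and 7.5, 8, 6.76 and 8.23 CPM in TPdh−/− TM, a rise in both cultures that was larger in TE (−1.41 ± 0.19, adjusted p = 7.1e-05). In all, 49 positive genes rose in both cultures and more in TM, 80 negative genes rose in both and more in TE, 21 positive genes fell in both and more in TE, and 13 negative genes fell in both and more in TM.

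Functions close to the deleted enzyme were read against the 15.5% of all genes called. Of 14 genes of the pyruvate dehydrogenase complex and its regulators 1 was called, the phosphatase gene Pdp2 (−0.39, adjusted p = 0.00332), and of 25 glycolysis genes 1 was positive and 1 negative. Among 19 genes that handle pyruvate, lactate and malate 3 were negative, of which Gpt2, which makes alanine from pyruvate, differed by −1.82 (adjusted p = 0.000128) and Pcx, the pyruvate carboxylase, by −1.33 (adjusted p = 0.00164). With 15.8% called, that list was near the background. Of 29 fatty acid oxidation genes 1 was positive and 3 negative. Of 22 tricarboxylic acid cycle genes 5 were negative and 1 positive, 27.3% against that background.

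Of 78 nuclear genes of the respiratory chain 2 were positive and 0 negative, and of 13 genes of the mitochondrial genome 0 were called, although the difference was above 0 for all 13 with a median of 0.25. At an unadjusted p under 0.05 the interaction held 4503 genes of 15277. For 83 cytosolic ribosomal protein genes 1 was called positive and the median was 0.17, which was 0.04 on TPM without further scaling, where the median of the respiratory chain genes turned from 0.11 to −0.03. Of 48 DNA replication genes 0 were called, although 18 were called lower in TM and 14 in TE. Of 48 mitosis genes 3 were positive, although 33 were called lower in TM and 39 in TE. Among all genes the genotype contrast called 18.3% in TM and 31.4% in TE, counting both directions. A list without calls does not show that the 2 cultures responded alike.

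T cell receptor genes had calls of both signs. Of 17 receptor and coreceptor genes 6 were positive and 2 negative, against 8.03% and 7.5% of all genes. Cd3g, of the CD3 complex, lay between 579 and 663 CPM in WT TE and between 382 and 451 CPM in TPdh−/− TE, with overlap in TM (0.52 ± 0.105, adjusted p = 0.00192). Cd8a lay between 1532 and 1765 CPM in WT TM and between 946 and 1245 CPM in TPdh−/− TM, with overlap in TE (−0.51 ± 0.123, adjusted p = 0.00613).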

How the data were processed

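RNA from 16 cultures was sequenced as poly(A) libraries that did not keep strand. The submitters' processing notes name STAR 2.7.6a for alignment, RSEM 1.3.3 for quantification, and DESeq2 with no version. The authors deposited RSEM expected counts per gene on mm10 (GRCm38), with TPM, which the authors' RSEM run scaled by gene length and library total, and FPKM deposited beside them and not used here. Expected counts were rounded to whole numbers. Names and positions came from GENCODE M21, which matched 55141 of 55401 genes (99.5%). Genes passed edgeR's filter (minimum count 10, minimum total 15), libraries were scaled by TMM, and the contrast was fitted with edgeR 4.0.16 (robust quasi-likelihood test, R 4.3.3) on all 4 groups with no covariate, with Benjamini-Hochberg adjustment over 15277 genes and a threshold of 0.05. Each SE is from the spread of log2 CPM (prior count 2) between libraries, n = 4 per group. Every adjusted p in the text is from this edgeR fit unless another is named. Marker sums were compared by exact permutation tests. Scripts were tested on simulated data. Alternatives used limma 3.58.1 and DESeq2 1.42.0 as well as other scalings, filters and left-out libraries. Named genes were up to 12 per sign with the largest called difference (at least 1 CPM in a group, more than 3 counts in each), up to 12 per opposite-sign pattern and up to 4 per list by adjusted p, and a few fixed genes that include Pdha1, Ly6c2, Gzmb and Il2ra, without predicted genes, receptor segments or pseudogenes. Other members of the lists, and Prf1, Klrd1, Tyrobp, Lag3, Irf8, Eomes, Tbx21, Tcf7, Ccr7, Ifng and Myc, were named after their values were seen. The genes and lists were chosen with earlier results of these data known. Genes whose exons overlap those of another gene, among them Lat2, Apol7e, Itga1, Lyn, Pigz, Spp1, Irf1, Bcl2, Cdk6, Cish, Fdft1, Cars, Gimap7, Hmgcs1, Foxp3, Eomes, Ifng and Pdha1, may hold reads of that gene. A few genes that the rule names are not reported here.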

Additional observations from a re-analysis of the deposited data

Results flagged for a closer look

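The genotype effects differed between cultures, by the interaction test itself, for 1226 genes with a positive and 1146 with a negative difference, of which 149 rose in TM and fell in TE and 65 fell in TM and rose in TE. Single libraries stood far from the other 3 of their group in 16 of 268 groups examined, over 55 genes and the marker sums, and chance gives about 1 in 20. In WT TE these were Fasn at 198 CPM in library 1, Cish at 99.9 CPM in library 2 and Lag3 at 69.2 CPM in library 4. In TPdh−/− TE they were Pigz at 2.74 CPM and Slc15a1 at 6.34 CPM in library 5, and Gzma at 345 CPM, Spp1 at 42.1 CPM and the erythroid marker sum at 3.14 TPM in library 8. In WT TM they were Ctla4 at 107 CPM in library 9, the B cell marker sum at 21.3 TPM in library 10, Lat2 at 1.22 CPM in library 11 and She at 2.14 CPM in library 12. In TPdh−/− TM they were She at 2.15 CPM in library 14, and Cish at 237 CPM, Spp1 at 47.8 CPM and Gzmc at 20.3 CPM in library 16.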

How the results depend on the processing

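The main analysis gave 1226 positive genes, 1146 negative genes, 149 genes higher in TM and lower in TE, and 65 genes lower in TM and higher in TE. Library totals alone gave 1800 negative genes. On log2(TPM + 0.5) without further scaling, limma gave 529 positive and 2310 negative genes and 54 of the first opposite-sign kind, and with TMM factors on TPM, a setting chosen after seeing the data, 36 of the second. No filter on low counts left 41 of the second kind. At an adjusted p under 0.01 the counts were 649, 521, 67 and 15, and in a test against a fold of 1.2 they were 525, 443, 51 and 5, as stricter thresholds call fewer genes. Leaving out each library in turn gave 1026 to 1451 positive, 807 to 1224 negative, 125 to 175 and 39 to 67 genes, the last lowest without WT TM library 12. DESeq2 kept 2353 of the 2372 calls with the same sign (99.2%), size factors of DESeq2 kept 98.8%, and TPM without further scaling kept 62%. For genes named in the text or by rule, no alternative reversed a called difference. Causes of these moves were not tested beyond the settings' own construction. No paired analysis was made. Each library has its own number, so the labels cannot show whether TE and TM cultures of a genotype came from the same animals. If they did, the interaction test ignored that pairing. With 4 libraries per group and a common biological coefficient of variation of 0.104, small differences between cultures could not be told from the spread.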
